A study of Mus musculus with 9 samples.

Results

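The mouse cytosolic ribosome is built from ribosomal RNA and a fixed set of ribosomal proteins, and the genes for these proteins were followed here across 3 populations of thymic dendritic cells. The members were the rows of the count table whose symbol names a protein of the large (Rpl) or small (Rps) subunit, with the stalk genes Rplp0, Rplp1 and Rplp2 and with Rpsa, and without rows named as pseudogenes (-ps) or as ribosomal S6 kinases. There were 89 members, 53 of the large and 36 of the small subunit, among 55278 named gene symbols. GENCODE annotates 83 of them as protein-coding and 6 (Rpl6l, Rpl32l, Rps12l1, Rps3a2, Rps3a3 and Rps4l) as processed pseudogenes, although their symbols do not say so.

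Ribosomal proteins enter the ribosome in nearly equal numbers, and their mRNAs are among the most abundant of a growing cell. These mRNAs typically begin with a tract of pyrimidines (the TOP sequence), through which mTORC1 and LARP1 control how much of them is translated and how stable they are. Transcription of the genes draws on ETS factors and MYC proteins, and many of their introns host small nucleolar RNAs. Ribosomal protein mRNAs have also left a large number of processed copies in the genome, so that short reads from them can fit more than one place.

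The libraries came from sorted dendritic cells of C57BL/6 mice of 8 weeks, with thymi digested by collagenase. No treatment or genotype separates the groups, which are named for a surface protein. XCR1 marks type 1 conventional dendritic cells, SIRPa marks type 2 cells, and CD301b (encoded by Mgl2) marks a subset of type 2 cells. Each population had 3 libraries, numbered 1, 2 and 3 for SIRPa and XCR1 and 1, 3 and 4 for CD301b. The series' design text speaks of 3 mice. The sources used here do not state whether a number stands for 1 mouse or whether thymi were pooled. The p-values therefore reflect the spread between libraries only, which may in part be technical. Libraries were made from total RNA with a stranded kit for small inputs and held 20246092 to 25438864 assigned counts.

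Markers of type 1 and type 2 cells followed the labels. All 9 tested markers of type 1 cells were higher in XCR1 and all 9 of type 2 cells were higher in SIRPa and in CD301b, and Mgl2 averaged 624 CPM in the CD301b libraries, against 23.2 in SIRPa and 1.82 in XCR1. The field for the source reads thymocytes, while that for the cell type reads dendritic cells. CPM is a count scaled to a library of 1000000 counts after normalisation by the trimmed mean of M values. Other lists also differed between the populations. Summed macrophage markers ranged from 2413 to 2812 CPM in SIRPa, 1482 to 1714 in CD301b and 94.2 to 121 in XCR1, with none of 12 at 0. For all 12, every SIRPa and every CD301b library lay above every XCR1 library. The markers of type 2 cells summed to 1790 to 1921 CPM in SIRPa, 2470 to 2855 in CD301b and 58.7 to 82.4 in XCR1. In SIRPa the macrophage sum was thus the larger of the 2. Summed cell cycle genes ranged from 1228 to 1577 CPM in SIRPa, 1603 to 1673 in CD301b and 2275 to 2930 in XCR1. Thymocyte and T cell markers summed to 693 to 953 CPM in SIRPa, 471 to 871 in CD301b and 203 to 867 in XCR1, plasmacytoid cell markers to 396 to 431, 539 to 675 and 119 to 145 CPM, and B cell markers to at most 34.8 CPM in any library. Markers of mature dendritic cells summed to 3398 to 3471 CPM in SIRPa, 2816 to 3207 in CD301b and 2373 to 3021 in XCR1, and immediate early genes to 1798 to 1912, 2368 to 3050 and 1931 to 2135 CPM. The part of these cells in the results below was not tested, and in bulk samples fewer cells of a type and less RNA per cell cannot be told apart.

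The upstream sequences of 6 members are shown to let the start of the mRNA be read beside its level. Rps18, Rpl14 and Rpl28 were among the members with the largest differences between SIRPa and XCR1, Rplp0 and Rplp2 are stalk genes that parted, and Rps9 differed little. They were chosen after the values were seen. Each stretch runs from 100 bases before to 20 bases after the RefSeq start of the gene (build GRCm38.p6), on the strand of the gene. Capitals mark the longest run of pyrimidines between 30 bases before and 20 bases after the start, and in Rps18 also the motif CCGGAAG, the core of an ETS site.
Rps18 (chr17:33955646-33955765, minus strand): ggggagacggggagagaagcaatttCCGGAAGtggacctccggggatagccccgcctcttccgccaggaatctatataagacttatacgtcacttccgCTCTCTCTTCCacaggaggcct
Rpl14 (chr9:120571417-120571536, plus strand): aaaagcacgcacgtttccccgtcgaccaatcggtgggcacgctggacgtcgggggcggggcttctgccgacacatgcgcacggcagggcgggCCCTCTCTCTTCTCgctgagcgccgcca
Rpl28 (chr7:4792865-4792984, plus strand): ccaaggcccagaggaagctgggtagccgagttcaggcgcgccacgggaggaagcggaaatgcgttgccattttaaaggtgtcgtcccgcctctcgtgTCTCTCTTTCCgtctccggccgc
Rplp0 (chr5:115559367-115559486, plus strand): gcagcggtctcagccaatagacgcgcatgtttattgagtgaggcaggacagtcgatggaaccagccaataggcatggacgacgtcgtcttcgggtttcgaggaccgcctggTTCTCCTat
Rplp2 (chr7:141447551-141447670, plus strand): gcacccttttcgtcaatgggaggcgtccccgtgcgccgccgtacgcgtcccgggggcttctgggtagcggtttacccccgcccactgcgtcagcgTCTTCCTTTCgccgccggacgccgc
Rps9 (chr7:3703941-3704060, plus strand): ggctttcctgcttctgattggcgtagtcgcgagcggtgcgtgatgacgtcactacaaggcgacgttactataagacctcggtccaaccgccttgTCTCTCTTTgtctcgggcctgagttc

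The RefSeq table held an upstream sequence for 64 of the 89 members. A run of at least 8 pyrimidines in that window was present in 31 of the 64, which is 48.4%, against 20.2% of all 32851 promoters in the table. On the opposite strand the order was the other way round, with 10.9% of the members and 21.9% of all promoters. It was present in 16 of the 32 members with an entry that were lower in SIRPa than in XCR1 and in 14 of the 29 tested ones that did not pass. CCGGAAG, searched on both strands over all 300 bases of each entry, was present in 39.1% of the members and 8.86% of all promoters, in 34.4% of those lower in SIRPa and 44.8% of those that did not pass. Its first letters can be the end of a tract. A match is a description of these letters and not a bound site.

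Shares were taken of the counts assigned to named gene symbols, without rows that have date-like names. The members together held 3.39%, 3.60% and 3.04% of these counts in CD301b libraries 1, 3 and 4. In SIRPa libraries 1, 2 and 3 they held 2.92%, 3.23% and 3.35%. XCR1 libraries 1, 2 and 3 gave 3.62%, 3.90% and 3.81%, each above every library of the other populations. The means were 3.34% ± 0.282 (SD, n = 3) in CD301b, 3.17% ± 0.220 in SIRPa and 3.78% ± 0.142 in XCR1. SIRPa lay 0.607 percentage points below XCR1 and CD301b lay 0.432 points below it, each with p = 0.1 in a two-sided exact permutation test, the smallest p that 3 libraries against 3 allow. CD301b and SIRPa overlapped and differed by 0.174 points (p = 0.4, exact permutation test). The 3 p-values came from 1 family, so none passes a correction.

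**Figure D1:**
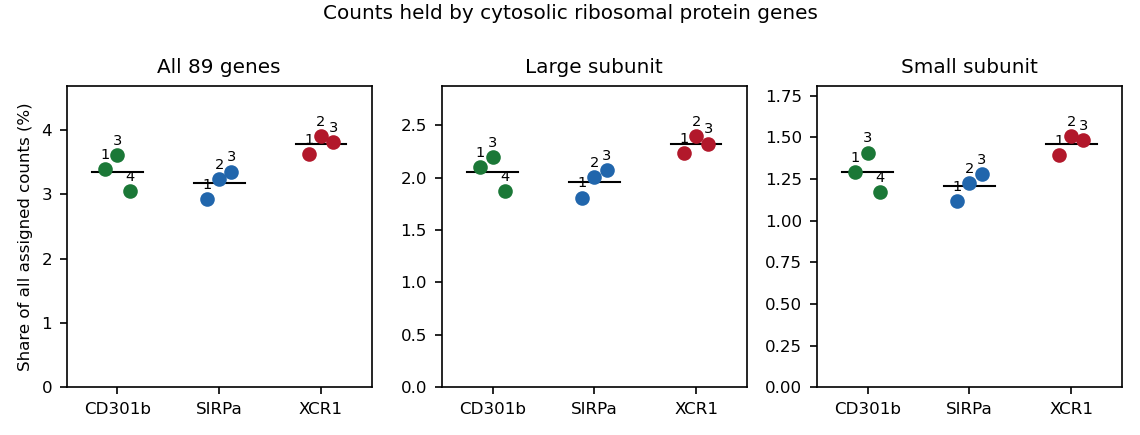
Share of counts (percent, vertical axis from 0) held by all 89 ribosomal protein genes, by those of the large subunit and by those of the small subunit. The axis reads all assigned counts, but rows with date-like names were left out. Points are libraries with their number, bars are means of 3 libraries. XCR1 libraries lie between 3.62% and 3.90% and the others between 2.92% and 3.60%.

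Both subunits lay lower in SIRPa than in XCR1, without overlap. Large subunit genes held 1.96% ± 0.137 of counts in SIRPa and 2.32% ± 0.0822 in XCR1, and small subunit genes held 1.21% ± 0.0832 and 1.46% ± 0.0609 (SD, n = 3). Within populations the libraries also differed: among the 74 members of at least 100 CPM, SIRPa library 1 was the lowest of all 9 libraries for 55, and XCR1 library 2 was the highest for 50. Genes encoded in mitochondrial DNA held 9.04% ± 0.277 of counts in SIRPa and 8.37% ± 1.03 in XCR1, with overlap.

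Gene by gene, 85 of the 89 members passed the filter on low counts and were tested among 15417 genes. Between SIRPa and XCR1, edgeR's quasi-likelihood test (Benjamini-Hochberg adjusted p under 0.05) called 44 members lower in SIRPa and none higher, with 41 that did not pass. Over all genes tested, 24.7% were called, 10.7% lower in SIRPa and 13.9% higher, so the members' 51.8% stood above the background. The median log2 fold change was -0.34 for the members, a drop by 21.2%, and 0.06 for all genes. Abundant genes as a whole leaned the same way: of the 1876 genes of at least 100 CPM, 30.0% were lower and 19.9% higher in SIRPa (median -0.11), against 56.8% lower and none higher of the 74 members at that level. Among the 69 other protein-coding genes of that level with a transcript under 1000 bases, 31 were lower in SIRPa and 17 higher (median -0.23). These 2 strata were chosen after the values were seen.

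For 58 of the 85 members, every SIRPa library lay below every XCR1 library, which is 68.2% against 18.1% of all genes tested and 39.3% of those of at least 100 CPM (74.3% of the members at that level). No member had every SIRPa library above every XCR1 library, which 22.1% of all genes did. Of the tested members, 23 of 50 in the large subunit and 21 of 35 in the small subunit were lower in SIRPa. The call count rested in part on single libraries: it was 29 without XCR1 library 2 and 31 without SIRPa library 1.

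Between CD301b and XCR1, 13 members were lower in CD301b and none higher, which is 15.3% of those tested against a background of 9.12% of all genes lower, 13.5% higher and 22.6% in either direction. The median was -0.17 for the members and 0.05 for all genes. It was -0.05 for the genes of at least 100 CPM and -0.15 for the 69 other short protein-coding genes of that level. At 100 CPM or more, however, the members' share of 17.6% lay below the 22.4% of all genes at that level, 21.5% of which were higher. Every CD301b library lay below every XCR1 library for 25 members, 29.4% against 15.4% of all genes, and at 100 CPM or more for 33.8% of the members against 28.5%. The count was 26 without CD301b library 3 and 8 without XCR1 library 2. Each of the 13 was also among the 44 lower in SIRPa, and the comparisons share the XCR1 libraries.

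Between CD301b and SIRPa, a single member was higher in CD301b and none was lower, against a background of 4.28% of all genes, 2.2% higher and 2.08% lower. At 100 CPM or more, 8.37% of all genes were higher and 5.38% lower. The median was 0.14 for the members and 0.01 for all genes. It was 0.06 for the genes of at least 100 CPM and 0.14 for the 69 other short protein-coding genes of that level. Every CD301b library lay above every SIRPa library for 11 members, where 10.7% of all genes did so, and below for 1 member, where 11.4% did. At 100 CPM or more, it was above for 10 of 74 members, where 22.7% of all genes did so, and below for none, where 14.3% did. The count was 5 without CD301b library 4 and 0 without CD301b library 1 or 3, without any 1 SIRPa library, or without XCR1 library 1, which enters through the common fit.

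**Figure D2:**
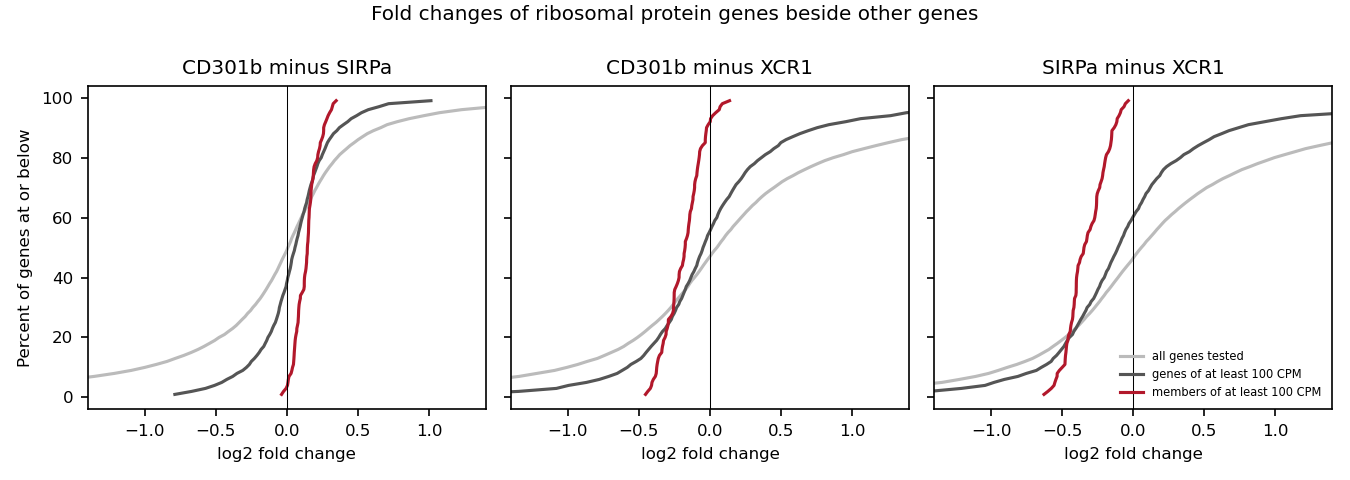
Log2 fold change (horizontal axis) against the percent of genes at or below it (vertical axis) for all 15417 genes tested, the 1876 genes of at least 100 CPM and the 74 members of at least 100 CPM, in each comparison. The curve of the members is steeper than the others and, for SIRPa minus XCR1, lies left of 0 nearly throughout.

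The order SIRPa, then CD301b, then XCR1 from low to high held for the means of 68 of the 85 tested members, and in 10 more CD301b was highest and SIRPa lowest. Neighbours in that order often overlapped, since 73 members overlapped between CD301b and SIRPa and 59 between CD301b and XCR1. Relative to each member's own mean over 9 libraries, the median member of at least 100 CPM stood at -0.28, -0.13 and -0.06 on the log2 scale in SIRPa libraries 1, 2 and 3. It stood at -0.01, 0.15 and -0.19 in CD301b libraries 1, 3 and 4, and at 0.13, 0.27 and 0.14 in XCR1 libraries 1, 2 and 3. CD301b thus had both a library close to XCR1 and a library close to SIRPa.

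**Figure D3:**
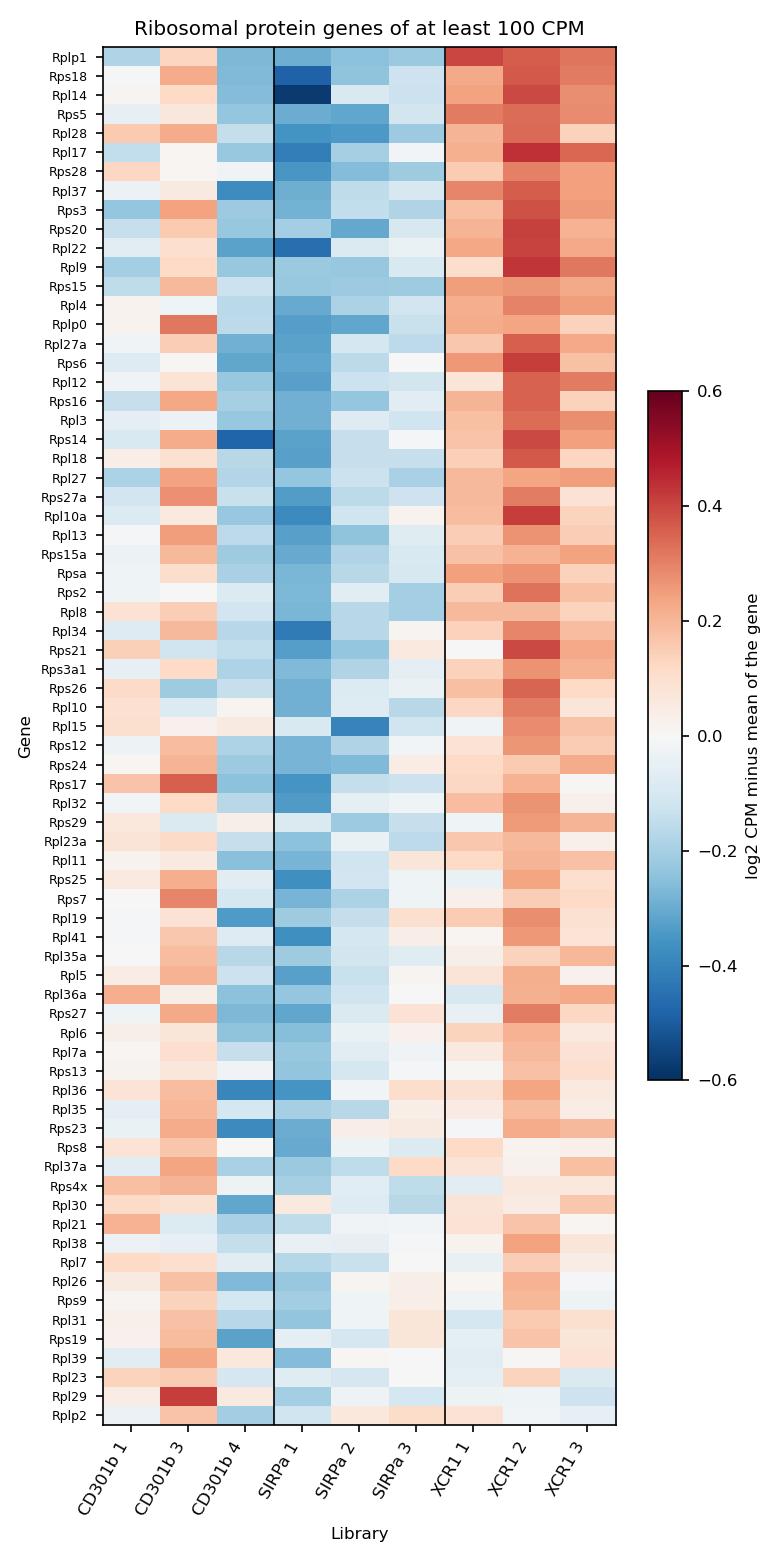
Log2 CPM of 72 of the 74 members of at least 100 CPM in each of the 9 libraries, as the difference from the member's own mean (colour, log2 units), with members ordered by log2 fold change between SIRPa and XCR1. XCR1 library 2 is highest for 49 of the members plotted and SIRPa library 1 lowest for 54, and the bottom rows, ending in Rplp2, show little difference between SIRPa and XCR1.

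The proteins of the stalk, a lateral arm of the large subunit that recruits elongation factors, differed from each other. Rplp1, an acidic stalk protein (chr9:61913284-61914542, minus strand, mm10), had 785, 766 and 742 CPM in XCR1, 485, 502 and 509 in SIRPa and 524, 650 and 493 in CD301b. All XCR1 libraries were above all others, and Rplp1 was lower in SIRPa by a log2 fold change of -0.62 (SE 0.10, edgeR adjusted p = 9.2e-05) and in CD301b by -0.46 (SE 0.10, adjusted p = 0.0019). Its partner in the stalk, Rplp2 (chr7:141447370-141451585, plus strand), had 930, 863 and 844 CPM in XCR1, 806, 912 and 943 in SIRPa and 852, 985 and 758 in CD301b. The 3 populations overlapped, with a log2 fold change of 0.01 between SIRPa and XCR1 (SE 0.10, adjusted p = 0.96).

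Rplp0, which anchors both to the ribosome (its upstream sequence is shown above), had 1306, 1318 and 1231 CPM in XCR1, 888, 902 and 1018 in SIRPa and 1135, 1393 and 1002 in CD301b. It was lower in SIRPa than in XCR1 (-0.46, SE 0.11, edgeR adjusted p = 0.0029), while CD301b spanned both (-0.13, adjusted p = 0.47 against XCR1). The ratio of Rplp1 to Rplp2 was 0.844, 0.887 and 0.879 in XCR1, 0.601, 0.550 and 0.539 in SIRPa and 0.615, 0.660 and 0.651 in CD301b. No 2 populations overlapped in this ratio, which was chosen after the values were seen (p = 0.1 for each pair, exact permutation test, the smallest possible). The ratio of Rplp0 to Rplp2 was 1.06 ± 0.0597 in SIRPa, 1.36 ± 0.0508 in CD301b and 1.46 ± 0.0607 in XCR1 (SD, n = 3), and CD301b and XCR1 overlapped in it.

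To ask which members moved differently from the set, the libraries were scaled by the summed counts of the 89 members, an analysis added after the values were seen. The scaling centres the members by construction and no other genes. Their counts of calls are thus not comparable with the shares of all genes given beside them. On that scale 3 members passed between SIRPa and XCR1, where 25.2% of all genes did. Among them, Rplp2 stood above the set in SIRPa (0.34, SE 0.09, edgeR adjusted p = 0.013), and Rplp1 stood below it (-0.29, adjusted p = 0.043). Leaving out each of the 9 libraries in turn kept the call of Rplp2 in 7 fits and of Rplp1 in 2. Between CD301b and XCR1, 2 members passed (21.2% of all genes did): Rpl29 stood above the set in CD301b (0.43, SE 0.11, adjusted p = 0.0086, called in 9 of 9 leave-one-out fits), and Rps4x did so too (0.29, adjusted p = 0.047, called in 2 of 9). On the main scale neither passed against XCR1 (0.24 and 0.10, edgeR adjusted p = 0.12 and 0.54). Against the members' sum, Rpl29 stood at 0.28 between SIRPa and XCR1 (edgeR adjusted p = 0.076) and at 0.15 between CD301b and SIRPa (adjusted p = 0.66). None passed between CD301b and SIRPa, where 3.13% of all genes did.

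**Figure D4:**
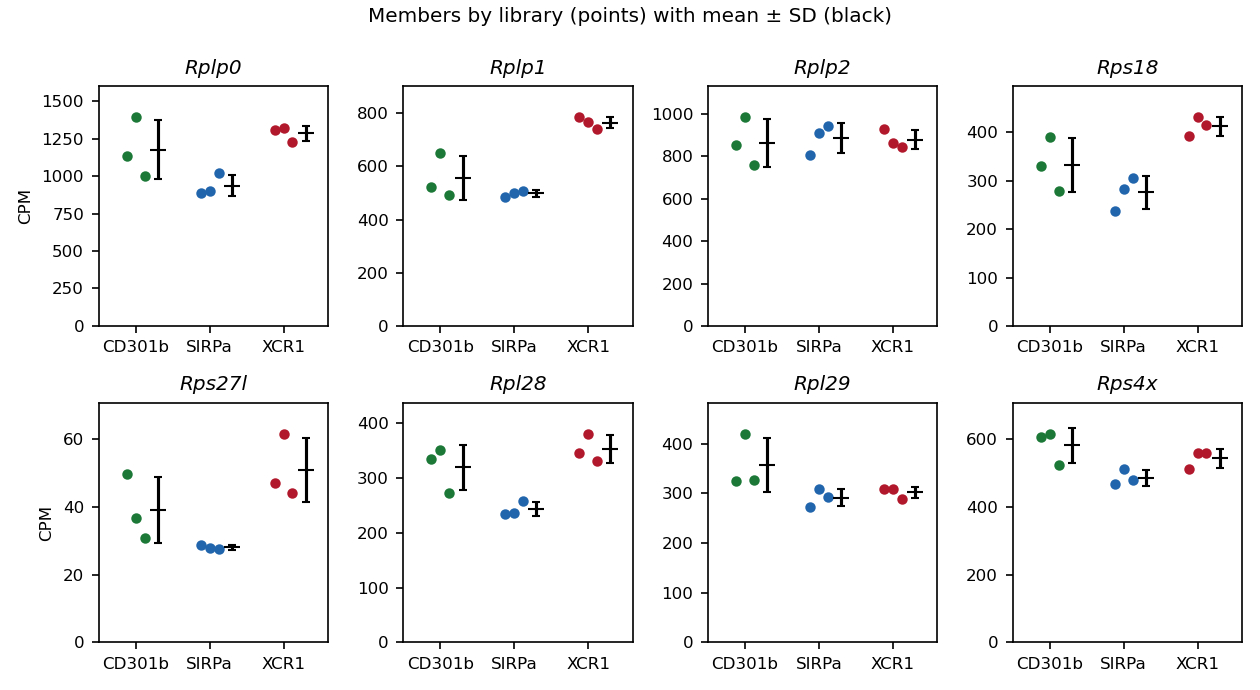
CPM of 8 members in each library (points, vertical axes from 0) with the mean ± SD of 3 libraries (black) in the populations CD301b, SIRPa and XCR1. Rplp1 and Rps18 are highest in XCR1 without overlap, Rplp2 overlaps in all 3 populations, and Rpl28 is lowest in SIRPa, at 234 to 258 CPM.

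In the small subunit, Rps18, a protein of its head, had 392, 431 and 415 CPM in XCR1 and 239, 283 and 306 in SIRPa without overlap (-0.58, SE 0.12, edgeR adjusted p = 9.6e-04). CD301b, at 331, 390 and 278 CPM, overlapped SIRPa and did not pass against XCR1 (-0.31, adjusted p = 0.071), though 4 of 17 alternative fits called Rps18 there. Rps6, the substrate of the S6 kinases downstream of mTORC1, had 732, 816 and 691 CPM in XCR1, 492, 549 and 610 in SIRPa and 580, 615 and 493 in CD301b. XCR1 was above both other populations in every library. The log2 fold changes of Rps6 were -0.44 for SIRPa (SE 0.11, edgeR adjusted p = 0.0040) and -0.41 for CD301b (SE 0.11, adjusted p = 0.0080). With a replicate block the edgeR adjusted p for CD301b was 0.063. That block takes up CD301b library 4, whose number no other population has.

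Rpsa, which doubles as a laminin receptor at the cell surface, had the highest CPM of the set, with 1869, 1902 and 1735 in XCR1, 1301, 1402 and 1474 in SIRPa and 1547, 1694 and 1375 in CD301b. It was lower in SIRPa than in XCR1 (-0.40, SE 0.09, edgeR adjusted p = 0.0031) and did not pass for CD301b (-0.25, adjusted p = 0.058), though 7 of 17 alternative fits called Rpsa lower in CD301b. Rps27a, made as a fusion with ubiquitin, averaged 412 ± 31.0 CPM in XCR1, 312 ± 24.4 in SIRPa and 364 ± 60.7 in CD301b (SD, n = 3). It was lower in SIRPa (-0.40, adjusted p = 0.013), a call lost without SIRPa library 1 or without XCR1 library 2 (adjusted p up to 0.066), and did not pass for CD301b (-0.18, adjusted p = 0.32).

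In the large subunit, Rpl28 was the member that separated the 2 type 2 populations. It had 335, 350 and 272 CPM in CD301b and 234, 236 and 258 in SIRPa, without overlap, and was higher in CD301b (log2 fold change 0.39, 1.31-fold, edgeR adjusted p = 0.042). In XCR1 it had 345, 380 and 330 CPM, so that SIRPa was the low population (-0.54 against XCR1, SE 0.11, adjusted p = 7.9e-04). The CD301b call held in 8 of 17 alternative fits, with adjusted p up to 0.19, while the XCR1 call held in all 17. Rpl28 shares 9.95% of its exonic bases with the opposite strand gene Ube2s. The sources used here do not state the strand setting of the counting, so reads of the pair cannot be told apart. The same holds for Rpl23a, which shares 59.7% of its exonic bases with the opposite strand gene Tlcd1, for Rpl5, which shares 24.3% with Fam69a, and to 6.36% to 8.18% for Rps18, Rpl22l1, Rps27a and Rps10.

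Rpl14 had 453, 504 and 464 CPM in XCR1 and 257, 360 and 350 in SIRPa, without overlap (-0.55, SE 0.12, edgeR adjusted p = 0.0019). Rpl17, a protein at the exit of the peptide tunnel, averaged 645 ± 50.2 CPM in XCR1, 446 ± 61.5 in SIRPa and 472 ± 40.3 in CD301b (SD, n = 3). It was lower than in XCR1 in both, by log2 fold changes of -0.53 and -0.45 (adjusted p = 8.5e-04 and 0.0040).

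Rpl37, Rpl9 and Rpl3 were also lower than in XCR1 in both type 2 populations. Rpl37 had 394, 414 and 381 CPM in XCR1, 262, 289 and 301 in SIRPa (-0.48, edgeR adjusted p = 0.0025) and 313, 333 and 247 in CD301b (-0.41, adjusted p = 0.0092). Rpl9 averaged 325 ± 36.2 CPM in XCR1, 234 ± 13.0 in SIRPa (-0.47, adjusted p = 0.0039) and 249 ± 34.2 in CD301b (-0.39, adjusted p = 0.017). Rpl3, which lies close to the peptidyl transferase centre, averaged 960 ± 51.6 CPM in XCR1, 716 ± 54.4 in SIRPa (-0.42, adjusted p = 0.0019) and 745 ± 53.6 in CD301b (-0.37, adjusted p = 0.0066). In all 3, every XCR1 library was above every SIRPa library. The CD301b call of Rpl9 was lost without CD301b library 1, without XCR1 library 2 and with a replicate block (edgeR adjusted p up to 0.096). That of Rpl37 was lost with the block (edgeR adjusted p = 0.076), which takes up CD301b library 4.

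Rpl5 and Rpl11, which with the smallest ribosomal RNA bind MDM2 when ribosome assembly fails, did not pass. Rpl5 had 1085, 1193 and 1047 CPM in XCR1, 820, 935 and 1040 in SIRPa and 1058, 1187 and 939 in CD301b. Its log2 fold change between SIRPa and XCR1 was -0.25 (SE 0.11, edgeR adjusted p = 0.096), and that of Rpl11 was -0.27 (SE 0.11, adjusted p = 0.088). Each of the 2 genes was called in 4 of 17 alternative fits. For both, the 3 SIRPa libraries still lay below the 3 XCR1 libraries.

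Rpl22, known for its part in the development of alpha-beta T cells, had 574, 647 and 572 CPM in XCR1, 357, 460 and 475 in SIRPa and 466, 523 and 391 in CD301b. It was lower than in XCR1 in SIRPa (-0.47, SE 0.12, edgeR adjusted p = 0.0055) and in CD301b (-0.38, SE 0.12, adjusted p = 0.027, up to 0.17 in the alternative fits). Its paralog Rpl22l1 averaged 26.0 ± 4.78 CPM in XCR1, 24.0 ± 4.24 in SIRPa and 26.6 ± 5.12 in CD301b and did not pass in any comparison. The ratio of Rpl22l1 to Rpl22 was 0.0437 ± 0.00953 in XCR1 and 0.0564 ± 0.0112 in SIRPa (SD, n = 3), with overlap.

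Of the paralogs, Rps27l, a target of p53 (chr9:66946086-66949516, plus strand), had the largest fold difference of any member that passed. It had 47.1, 61.6 and 44.1 CPM in XCR1, 28.9, 27.8 and 27.7 in SIRPa and 49.8, 36.8 and 30.7 in CD301b. The SIRPa libraries were close together and below all XCR1 and CD301b libraries (-0.86 against XCR1, a drop by 44.8%, SE 0.19, edgeR adjusted p = 0.0019). The CD301b libraries overlapped with XCR1 (-0.38, adjusted p = 0.17). Rps27 itself had 182, 232 and 205 CPM in XCR1, 151, 177 and 199 in SIRPa and 184, 220 and 156 in CD301b and did not pass between SIRPa and XCR1 (-0.23, adjusted p = 0.25).

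Rpl7l1, a nucleolar relative of Rpl7, averaged 94.3 ± 5.09 CPM in XCR1 and 84.3 ± 7.79 in SIRPa (-0.16, edgeR adjusted p = 0.44), and Rpl7 averaged 804 ± 53.5 and 725 ± 45.3 (-0.15, adjusted p = 0.30). The 3 tissue-restricted paralogs were close to absent: Rpl10l had 0 counts in all libraries, Rpl39l had 11 and Rpl3l had 9, all in SIRPa libraries. Rpl39l reached 0.284 CPM in SIRPa library 1 and 0.236 in library 3, and Rpl3l reached 0.424 in library 3, while 3 counts correspond to 0.119 to 0.150 CPM. They were not tested.

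Of the 4 X-linked members, 1 passed, between SIRPa and XCR1. In that comparison 10.7% of all genes tested and 51.8% of the tested members were called lower in SIRPa. Rpl10, close to the peptidyl transferase centre, was lower in SIRPa, with 603, 686 and 583 CPM in XCR1 and 453, 524 and 493 in SIRPa (-0.35, SE 0.10, edgeR adjusted p = 0.011). Its call was lost without SIRPa library 1 or without XCR1 library 2. Rps4x had 511, 558 and 559 CPM in XCR1, 466, 511 and 480 in SIRPa and 606, 616 and 522 in CD301b, without a call (-0.16, adjusted p = 0.26 between SIRPa and XCR1, and 0.26, adjusted p = 0.17 between CD301b and SIRPa). Rpl36a averaged 174 ± 21.3 CPM in XCR1 and 148 ± 12.2 in SIRPa (-0.24, adjusted p = 0.21), and Rpl39 averaged 117 ± 6.31 and 110 ± 11.3 (-0.09, adjusted p = 0.70). A difference between the X-linked and other members was not tested.

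**Figure D5:**
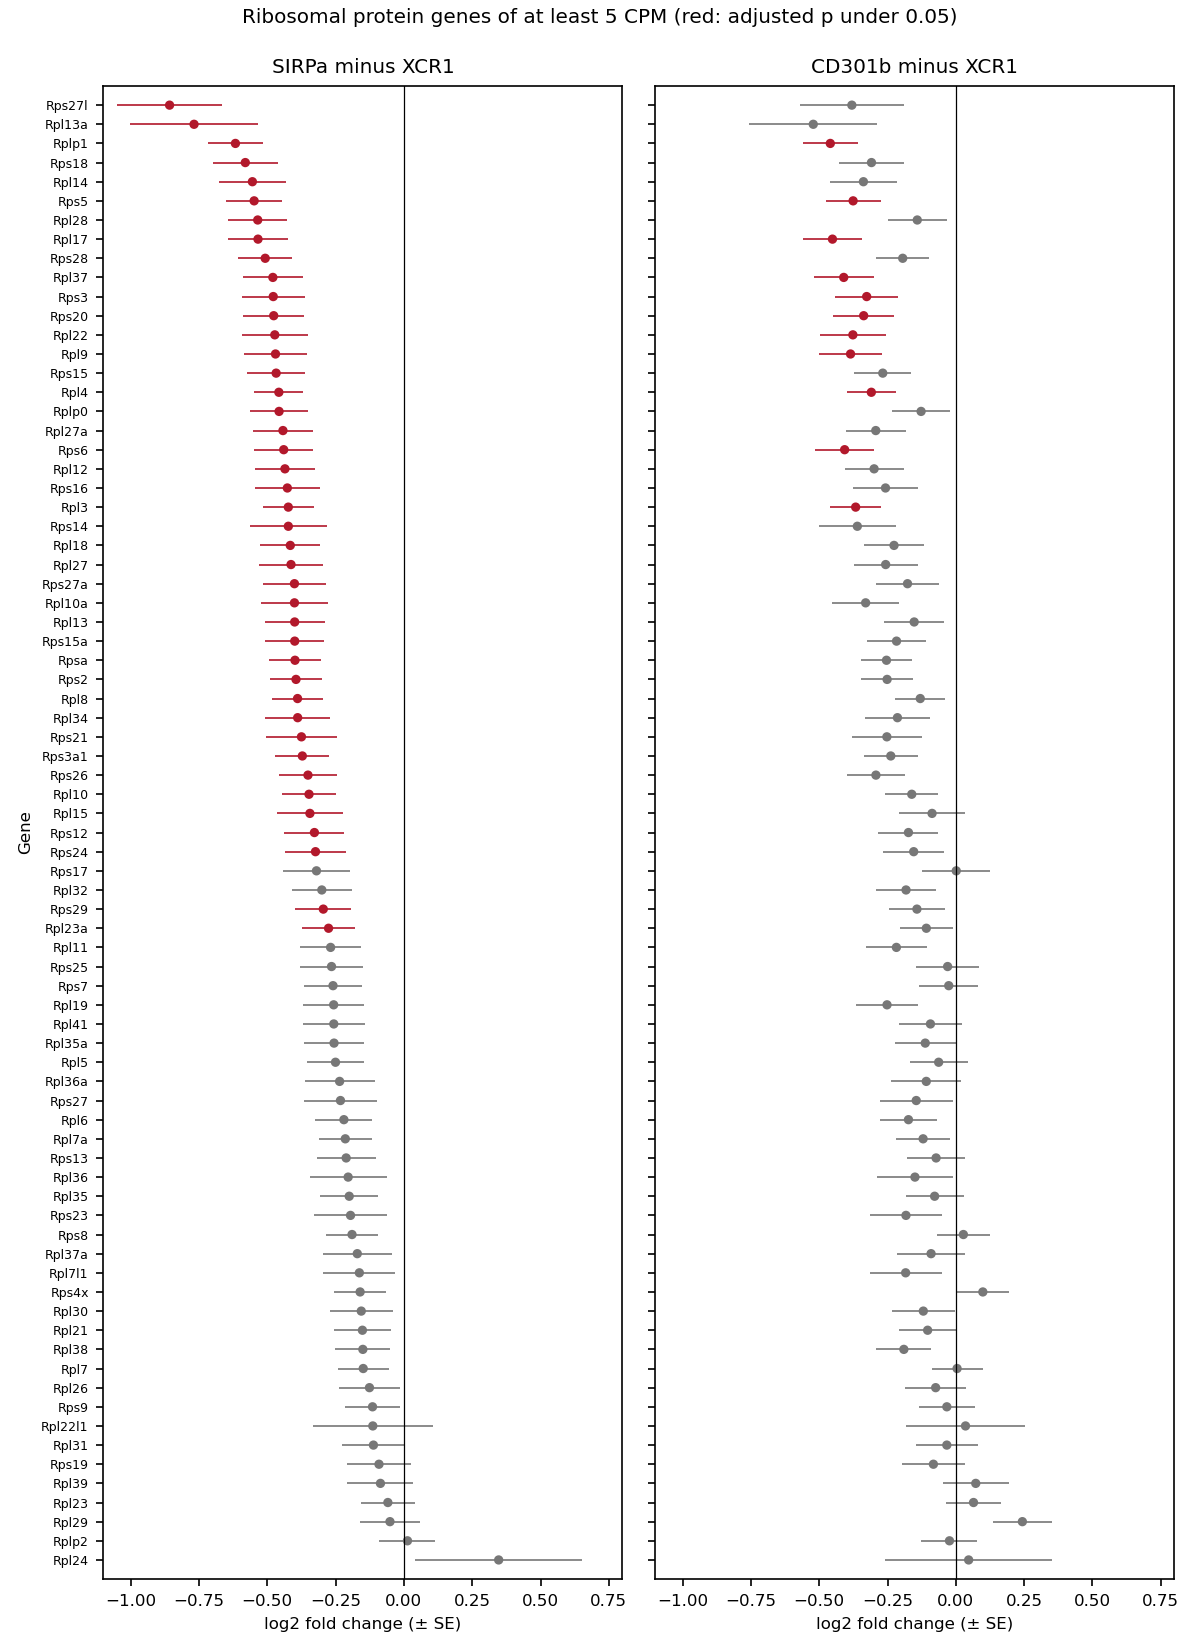
Log2 fold change ± SE (horizontal axis) of 77 of the 79 tested members of at least 5 CPM, for SIRPa minus XCR1 (left) and CD301b minus XCR1 (right), in the same order. Red marks an adjusted p under 0.05 in edgeR's quasi-likelihood test. The members run from Rps27l at -0.86 to Rpl24 at 0.35 on the left, with 42 in red on the left and 11 on the right.

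Levels per length differed widely between members. Set against the length of the main transcript, the 74 members of at least 100 CPM ran from 98.1 CPM per kilobase for Rps20, whose annotated main transcript is 3706 bases long, to 2083 for Rplp2, with a median of 550. The 5 highest were Rplp2, Rpl26 at 1771, Rpl23a at 1328, Rplp1 at 1215 and Rpl22 at 1047 CPM per kilobase. Rpl26 and Rpl23a both sit at the exit of the peptide tunnel. Rpl26 did not pass between SIRPa and XCR1 (-0.13, SE 0.11, edgeR adjusted p = 0.50), and Rpl23a was lower in SIRPa (-0.28, SE 0.10, adjusted p = 0.042, up to 0.16 in the alternative fits). Transcript lengths are those of the annotation and not of these cells.

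The protein-coding main copies under 100 CPM were Rpl13a with a mean of 27.2 CPM, Rpl24 with 10.5 and Rps10 with 4.26. They are also the 3 members that share most of their exonic bases with another gene on the same strand in the annotation, at 35.4%, 47.0% and 20.6%, ahead of Rpl32 with 14.5%. Gm45713, which overlaps Rpl13a, and Gm28037, which overlaps Rpl24, were at 0 counts in all 9 libraries. Whether these 3 low levels come from the counting was not tested, and they are uncertain. Rpl13a had 36.3, 46.4 and 24.4 CPM in XCR1 and 20.4, 22.1 and 20.4 in SIRPa, a called difference (-0.77, SE 0.24, edgeR adjusted p = 0.019) that was lost without any 1 of SIRPa library 1 or 3 or XCR1 library 1 or 2.

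The calls were also counted by how much sequence a member shares with other genes. Of the tested members, 30 had under 50% of the 50-base windows of their main transcript in common with another annotated transcript, pseudogenes included. Of these 30, 22 or 73.3% were lower in SIRPa than in XCR1 (median -0.42). Of the 55 with at least 50% in common, 22 or 40.0% were lower (median -0.26). Of all genes tested 10.7% were lower, and of those of at least 100 CPM 30.0%. The split was made after the values were seen, and its part in the result was not tested. The sources used here do not state how reads with several matches were treated.

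Among the 85 tested members, the 5 lowest per length were annotated pseudogenes: Rps3a2 at 0.473, Rpl6l at 1.02, Rpl32l at 2.75, Rps3a3 at 5.47 and Rps4l at 5.81 CPM per kilobase. None passed in any comparison, with 74 to 898 counts in all libraries together. The 5 tested members with the largest spread of log2 CPM over the 9 libraries were all low ones, namely Rps3a2, Rps10, Rps4l, Rps3a3 and Rpl6l, while for the 74 members of at least 100 CPM the SD ran only from 0.11 to 0.30. The 309 rows named as pseudogenes held 0.0272% ± 0.00117 of counts in SIRPa and 0.0297% ± 0.00178 in XCR1 (SD, n = 3). Of these rows, 83 were tested and none passed between SIRPa and XCR1.

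The translation machinery around the ribosome was read from fixed lists, chosen with earlier results of these data known. Over all genes tested, 10.7% were lower in SIRPa than in XCR1 and 13.9% higher. Of those of at least 100 CPM, 30.0% were lower and 19.9% higher. No list was tested as a set. Of 8 elongation factors, 4 were lower in SIRPa than in XCR1 and 1 was higher, with a median of -0.37. Eef1b2, the nucleotide exchange factor of the elongation factor that delivers tRNA, had 684, 680 and 675 CPM in XCR1, 297, 362 and 362 in SIRPa and 373, 426 and 333 in CD301b. It was lower in SIRPa by -0.998 (SE 0.11, edgeR adjusted p = 3.8e-07) and in CD301b by -0.85 (adjusted p = 3.4e-06). Eif5a, at -0.60 (adjusted p = 9.1e-05), and Eef1g, at -0.46 (adjusted p = 0.0013), were also lower in SIRPa, and Eef2 did not pass (-0.27, adjusted p = 0.051).

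Among 37 initiation factors, 12 were lower in SIRPa than in XCR1 and 1 was higher (median -0.25). Of all genes, 10.7% were lower and 13.9% higher, and at 100 CPM or more 30.0% and 19.9%. The lower factors were led by Eif3g, Eif2s1 and Eif2b2 at -0.91, -0.76 and -0.89. Eif4g2 did not pass (-0.17, edgeR adjusted p = 0.22). Among 26 tested mRNAs of other genes with a TOP sequence, a list that shares genes with the factor lists, 9 were lower and 1 was higher (median -0.26). Nap1l1, a histone chaperone of this list, was lower at -0.45 (adjusted p = 0.0011), and Vim did not pass (-0.12, adjusted p = 0.48).

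Of 74 genes for ribosomal RNA processing and assembly, 15 were lower in SIRPa than in XCR1 and 1 was higher, with a median of -0.23. The shares of all genes were 10.7% lower and 13.9% higher, and at 100 CPM or more 30.0% and 19.9%. Pes1 and Nop58 were lower at -0.95 and -0.80 (edgeR adjusted p = 3.7e-06 and 7.6e-05), Heatr1 was higher at 0.66 (adjusted p = 2.0e-04), and Ncl did not pass (-0.22, adjusted p = 0.090). Of 15 genes of RNA polymerase I, 4 were lower and none higher (median -0.31). Its largest subunit gene, Polr1a, had 117, 116 and 88.1 CPM in XCR1 and 39.2, 48.7 and 40.3 in SIRPa (-1.32, SE 0.15, adjusted p = 1.1e-06), and Ubtf did not pass (-0.10, adjusted p = 0.61). The count of lower genes in SIRPa was 8 to 19 for assembly under the alternative fits.

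Of 24 tested regulators of mTORC1, LARP1 and MYC, 6 were lower and 3 higher in SIRPa than in XCR1, with a median of -0.03. Of all genes tested, 10.7% were lower and 13.9% higher. Mycl, the MYC family member of type 1 dendritic cells, had 260, 209 and 209 CPM in XCR1, 25.4, 41.8 and 37.7 in SIRPa and 33.8, 34.6 and 28.7 in CD301b (-2.69 for SIRPa, SE 0.17, edgeR adjusted p = 8.2e-11). Rraga and Larp1b were lower in SIRPa too, at -1.26 and -1.42 (adjusted p = 4.6e-06 and 8.4e-06). Myc averaged 31.7 CPM in XCR1 and 28.4 in SIRPa and did not pass (-0.16, adjusted p = 0.71), nor did Mxd1 (-0.01, adjusted p = 0.98).

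Mitochondrial ribosomal protein genes, which serve the ribosome of the organelle, had a share of lower genes close to that of all genes. Of the 77 tested, 9 were lower in SIRPa than in XCR1, where 10.7% of all genes were, and none higher, with a median of -0.22, and the lower count fell to 2 in the alternative with fewest. Mrpl42, Mrpl22 and Mrpl51 led at -1.18, -1.20 and -0.92 (edgeR adjusted p = 1.7e-05, 0.0060 and 0.0073), and Mrpl18 did not pass (-0.39, adjusted p = 0.077). Rack1, a small subunit protein outside the naming rule, did not pass (-0.25, adjusted p = 0.14).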

How the data were processed

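The authors deposited gene counts (rows are gene symbols, columns are libraries) and a second table of log2 CPM values. Per the submitters' processing notes, FastQC, Trimmomatic, HISAT2, SAMtools, featureCounts (Subread) and edgeR were used with build mm10. The sources used here do not state versions or the settings for strand and multiple matches. Main results use the deposited counts. The deposited log2 CPM values hold 88 of the 89 members and differed from recomputed ones by a library median of 0.113 to 0.119. From the counts, 24 rows with date-like names were left out (0.125% to 0.187% of a library's counts).

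Counts were tested with edgeR 4.0.16 in R 4.3.3 (TMM, filterByExpr with a minimum count of 10, robust quasi-likelihood fit) in 1 fit of 9 libraries, with Benjamini-Hochberg adjustment over 15417 genes. Shares of counts were compared by exact permutation tests. Alternatives used DESeq2 1.42.0, limma 3.58.1, other scalings and filters, a replicate block, and leaving out each library. The script was tested on simulated data. Depth was 20246092 to 25438864 counts, and precision is limited by 3 libraries a group. The floor of 3 counts covers counting error only.

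The members and the lists were chosen with earlier results of these data known. Members named are the stalk genes, Rpsa, Rps6, Rpl5, Rpl11, Rps27a, Rpl22, X-linked genes and paralogs with their main copies, the 6 largest called differences per comparison and direction at a mean of at least 5 CPM, the 5 highest and lowest per length and the 5 most variable. From each list, up to 3 called genes (by adjusted p) and the most abundant uncalled one were named, with Myc and Mycl. Other members were named after their values were seen. Annotation was GENCODE M21 (mm10), which holds 96.9% of the symbols. Upstream sequences are from RefSeq (GRCm38.p6). Values of 2 members are counted in the totals but not reported by name or plotted one by one.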

Additional observations from a re-analysis of the deposited data

How the results depend on the processing

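The share of counts kept its direction in all 3 comparisons under every denominator and gene choice tried and moved by less than 1 SD. Leaving out 1 library gave differences of -0.698 to -0.484 points for SIRPa minus XCR1, -0.561 to -0.281 for CD301b minus XCR1 and 0.0456 to 0.325 for CD301b minus SIRPa. Between SIRPa and XCR1 there were 36 to 50 member calls by other scalings, filters, tests and sets of libraries and 29 to 50 when 1 library was left out. Between CD301b and XCR1 there were 11 calls from the 6 libraries compared alone, 13 with scaling without the members, 14 with library totals and 19 with DESeq2's size factors. There were 21 without the filter on low counts, 24 with DESeq2 and 25 with limma-voom, and 8 to 26 when 1 library was left out. Between CD301b and SIRPa there were 0 with DESeq2's size factors, library totals or scaling without the members, 2 without the filter, 3 with DESeq2 and 3 with limma-voom, and 0 to 5 when 1 library was left out. Against the members' own sum (added after the values were seen), leaving out 1 library gave 0 to 4, 1 to 3 and 0 to 0 calls for SIRPa minus XCR1, CD301b minus XCR1 and CD301b minus SIRPa. The cause was not tested.

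Deviations from the population means, over all genes tested, were correlated between libraries of different populations. The correlations were 0.00305 to 0.0413 for the 7 pairs with the same number and -0.0672 to 0.0481 for pairs with different numbers. With means of 3 libraries and many genes of low counts, such values cannot decide whether a number stands for a shared mouse. A replicate block gave 52 calls for SIRPa minus XCR1, 5 for CD301b minus XCR1 and 8 for CD301b minus SIRPa. Number 4 occurs only in CD301b, so the block takes up that library whole. The CD301b comparisons with the block thus rest on CD301b libraries 1 and 3 and do not only adjust for the number. No called value of a named gene reversed. With 3 libraries a population, a member that did not pass is not shown to be equal.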
